A study of Drosophila melanogaster with 8 samples.

Results

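Rab proteins are small GTPases that label the membranes of the cell. Their genes were taken as all those whose FlyBase symbol starts with Rab followed by a digit, by X or by -RP. The rule found 36 genes among the 13932 identifiers of the deposited tables, of which 33 encode GTPases. The other 3 encode regulators: Rab3-GEF, an exchange factor for Rab3, and Rab3GAP1 and Rab3-GAP, the catalytic and non-catalytic subunits of the Rab3 GTPase-activating complex. The rule reads gene names and no measured value.

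A Rab protein is active when it carries GTP and inactive when it carries GDP. Exchange factors load GTP and recruit the protein to a membrane, activating proteins trigger GTP hydrolysis, and GDP dissociation inhibitor returns the inactive form to the cytosol. Active Rab proteins bind effectors such as motor adaptors, tethers and lipid kinases, and each organelle carries its own set. In blood cells of the fly, endosomal Rab proteins are known for their part in phagocytosis and receptor uptake.

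Polyadenylated RNA was sequenced from S2R+ cells, a cultured Drosophila melanogaster line described as macrophage-like, and from S2R+ cells mutant for Stat92E, which encodes the transcription factor of the JAK/STAT pathway. Both lines received control media or media with upd (Unpaired, the secreted ligand of the pathway) for 1 hour before RNA extraction. Each of the 4 groups (wild type with control media, wild type with upd, mutant with control media and mutant with upd) held 2 libraries. The study asks which transcripts respond to the ligand and which of these responses need STAT92E. How the mutation was made and whether the mutant line is 1 clone are not given in the labels. The labels are silent on whether the 2 libraries of a group come from separate cultures. The spread behind every p-value is therefore that of these libraries and may be technical only.

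Library totals ranged from 8285533 to 30352948 counts, and the wild-type libraries numbered 1 (8285533 and 9142736) were shallower than those numbered 2 (28465332 and 30352948). Transcripts of the mitochondrial genome took 12.8% to 22.1% of the counts. Stat92E transcript was present in all 8 libraries, at 157 to 178 CPM (counts scaled to the TMM-normalised size of the library) in the wild-type and 103 to 121 CPM in the mutant libraries. Socs36E, a target and inhibitor of the pathway, stood at 287 and 208 CPM in wild-type cells with control media and, with upd, at 927 and 1007 CPM. In the mutant it stood at 32.4 and 49.9 CPM with control media and, with upd, at 39.8 and 97.996 CPM. Of 8 blood cell markers, 4 had a mean of at least 1 RPKM (reads scaled to transcript length and depth, as deposited), among them the scavenger receptor gene crq and the peroxidase gene Pxn. The phagocytosis receptor genes NimC1 and eater, which mark mature plasmatocytes, were at or near 0 with 3 and 20 counts over all libraries.

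S2R+ cells of both lines expressed a broad set of Rab GTPases, led by Rab1 and Rab11. Mean RPKM, which allows levels of different genes to be compared per length, was at least 100 for 6 of the 36 genes, from 10 to 100 for 11, and from 1 to 10 for 8. A further 5 genes had some counts and a mean under 1 RPKM, and 6 had no count in any library. For comparison, 9.4% of all 8126 genes that passed the count filter had a mean of at least 100 RPKM. The 27 members that passed the filter had a median level of 26.5 RPKM, against 11.7 RPKM over all genes that passed, and the filter itself removes low members.

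Rab1, which drives transport from the endoplasmic reticulum to the Golgi, had the highest mean level of the family. Its RPKM was 256 and 347 in wild-type cells with control media, 192 and 294 with upd, 348 and 299.98 in the mutant with control media, and 199 and 244 with upd. Rab11, the GTPase of the recycling endosome, followed with 219 and 264 RPKM in wild-type cells with control media and 233 and 269.9 RPKM with upd. In the mutant, Rab11 stood at 248 and 284 RPKM with control media and 229.6 and 281 RPKM with upd. The ranges of both genes overlapped over the 8 libraries, so that their order was not the same in each. Together they made up 31.7% to 36.6% of the summed RPKM of the GTPase genes, and the 10 highest genes made up 83.9% to 86.2%.

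The next 4 genes were Rab6 (transport within and out of the Golgi), Rab7 (fusion of late endosomes with lysosomes), Rab2 (Golgi, and in flies also lysosome fusion) and Rab5 (fusion of early endosomes). Their mean levels were 140.2, 130.3, 111 and 107 RPKM. Rab5 ranged from 95.8 to 119 RPKM over the libraries and Rab2 from 95.03 to 127 RPKM, so these neighbours in the order did not differ beyond their spread. By place of action, GTPases of the secretory path (Rab1, Rab2, Rab6, Rab18, Rab19 and Rab30) held 42.6% of the mean RPKM of the family. Those of recycling (Rab4, Rab11 and Rab35) held 22.1%, and those of late endosomes (Rab7, Rab9 and Rab14) held 14.1%. The exocytic group (Rab8, Rab10, Rab27, Rab3 and Rab26) held 8.69%, early endosomes (Rab5 and Rab21) 8.1%, and Rab32 with Rab39, of lysosomes and related organelles, 1.76%. The remaining genes with reads (Rab23, Rab40 and 4 of the RabX genes) held 2.67%.

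Members of middle and lower rank included GTPases of endosomes, the Golgi and lysosomes. Rab14 (endosome and phagosome maturation) had a mean of 75.95 RPKM, Rab18 (endoplasmic reticulum and lipid droplets in mammals) of 74.4 RPKM, Rab4 (fast recycling) of 55.6 RPKM and Rab30 (Golgi) of 47.1 RPKM. Rab35, of recycling to the plasma membrane, had a mean of 30.5 RPKM and Rab39, of lysosomes, of 26.5 RPKM. Below them stood RabX1 with 10.5 RPKM, Rab19 with 8.74 RPKM, Rab23, a planar polarity gene, with 7.69 RPKM, and RabX4 with 3.44 RPKM. Exons of Rab4 and Rab19 overlap those of Dcr-2 and Arl5 on the opposite strand, and exons of RabX4 those of Kaz on the same strand, so reads of each pair cannot be told apart for certain. None of these 10 genes passed the test in any comparison of edgeR's quasi-likelihood fit.

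**Figure D1:**
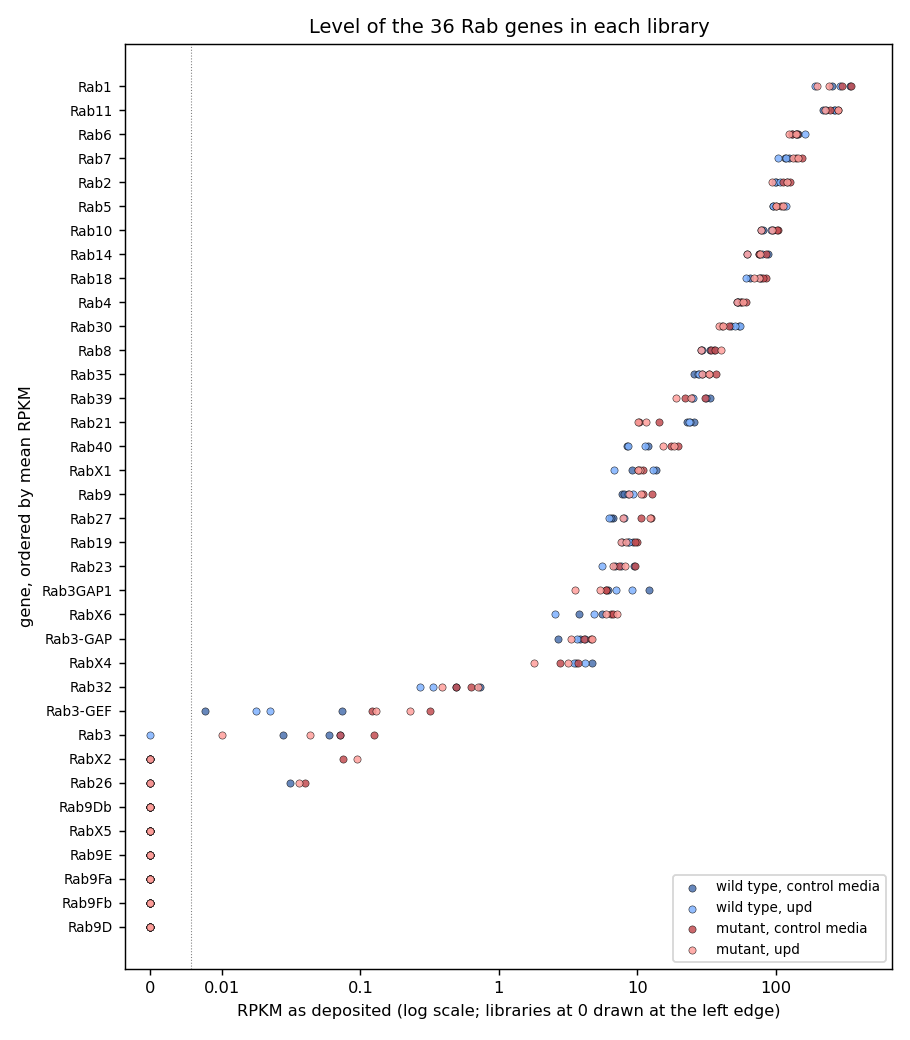
RPKM as deposited (log axis) of the 36 Rab genes, ordered by mean, with 1 point for each of the 8 libraries and libraries at 0 drawn at the left edge. Rab1 and Rab11 lie at the top between 192 and 348 RPKM, 25 genes have a mean of at least 1 RPKM, and the lowest 6 are at 0 in every library.

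In the exocytic group Rab3 and Rab26 were near or below the limit of detection. Rab10 and Rab8, which deliver cargo to the plasma membrane, were well expressed, with means of 90.9 and 33.5 RPKM. Rab27, also of this group, had a mean of 8.88 RPKM and was above the limit in all 8 libraries. Rab3, which primes synaptic vesicles for release, had 1, 7, 0 and 9 counts in the wild-type libraries and 6, 8, 4 and 1 in the mutant libraries. Rab26, known in mammals from secretory granules and synaptic vesicles, had 7 counts in all. The limit set here was 3 counts, which is 0.0961 to 0.379 CPM depending on the depth of the library. Rab32, the lightoid gene of pigment granules in the fly eye, stood between 0.269 and 0.735 RPKM.

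The 6 genes without a count were RabX5 and the 5 X-linked genes Rab9D, Rab9Db, Rab9E, Rab9Fa and Rab9Fb. A count of 0 allows up to 3 counts, which for these genes is at most 0.359 RPKM in the shallowest library. The X-linked Rab9 genes resemble one another, and how reads shared by similar copies were counted is not given in the sources used here, so their 0 is uncertain. RabX2 had 1 count in the second mutant library with control media, 2 in the second with upd and none elsewhere. Rab9 itself, which in mammals returns receptors from late endosomes to the Golgi, is a separate gene and stood between 7.78 and 12.8 RPKM.

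The summed level of the family differed little between lines and media. The summed CPM of the GTPase genes lay between 3049 and 3251 in the 8 libraries, and their share of all counts between 0.28% and 0.343%. Within a gene, the median SD of log2(CPM + 1) over the libraries was 0.21 for the 27 members that passed the filter and 0.27 over all genes that passed. The members had the higher median level, 26.5 against 11.7 RPKM, and the SDs were not matched for level. The summed levels are set by the few abundant genes and say little about the others.

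Between the lines with control media, 2 Rab genes differed: Rab21 was lower and Rab40 higher in the Stat92E mutant. They are 2 of the 27 members tested, or 1 in each direction, against 8.97% of all 8126 genes called (an adjusted p under 0.05), 3.27% higher and 5.7% lower. The median size of the log2 difference was 0.20 for the members, with a median SE of 0.191, and 0.31 over all genes, with a median SE of 0.229. Differences beyond 2-fold were seen in 2 members (7.41%) and in 15.9% of all genes.

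Rab21 acts on early endosomes and, in mammals, in the traffic of integrins. It stood at 30.0 and 28.8 CPM in wild-type cells with control media and at 11.9 and 16.04 CPM in the mutant. The wild-type libraries were both above the mutant libraries. Its log2 difference was -1.07 ± 0.21 (SE of the fit), 0.476-fold, with an adjusted p of 0.0148 by the quasi-likelihood test of edgeR with Benjamini-Hochberg adjustment. The call was lost, with adjusted p-values of 0.14, 0.062 and 0.062, without mutant library 1, wild-type library 1 or wild-type library 2 of this medium, which leaves 1 library in that group. The gene lies on chromosome X from 23012140 to 23013409 on the minus strand (dm6), and no other annotated gene overlaps its exons.

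Rab40 belongs to a subfamily known in vertebrates for a SOCS box that recruits a ubiquitin ligase. It stood at 16.6 and 20.1 CPM in wild-type cells with control media and at 34.2 and 29.5 CPM in the mutant. Both mutant libraries were above both wild-type libraries. Its log2 difference was 0.79 ± 0.20, 1.73-fold, with an adjusted p of 0.0461 (edgeR quasi-likelihood, Benjamini-Hochberg). That value is close to the threshold, and leaving out any of 6 libraries moved it above 0.05, to between 0.063 and 0.278. The 6 were the 4 libraries compared and both wild-type libraries with upd.

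**Figure D2:**
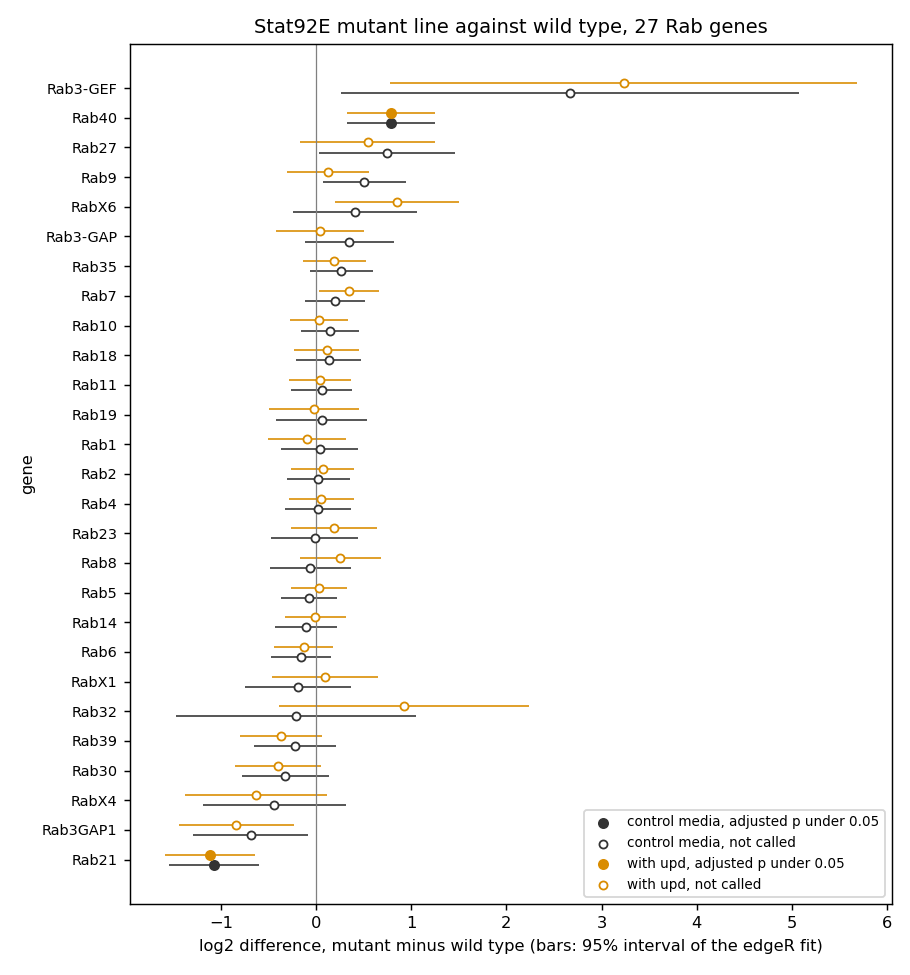
log2 difference of the mutant minus the wild-type line for the 27 Rab genes that passed the filter, with control media (dark) and with upd (orange). Bars are 95% intervals of the edgeR fit and filled points have an adjusted p under 0.05, which Rab21 and Rab40 reached in both media.

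The other 25 members did not pass the test. Rab3GAP1 stood at 22.8 and 38.7 CPM in wild-type cells with control media and at 19.7 and 18.9 CPM in the mutant, a log2 difference of -0.69 ± 0.27 with an adjusted p of 0.153 (edgeR quasi-likelihood, Benjamini-Hochberg). The groups did not overlap, but the 2 wild-type libraries were far apart, and the log2 difference was -0.24 without the second of them and -1.01 without the first. Rab3-GEF had 6 and 2 counts in the wild-type libraries and 23 and 46 in the mutant libraries. It passed the count filter through the mutant libraries, where it was higher, so its filtered test is no support for a line difference. At 0.759 and 0.0657 CPM against 1.10 and 2.81 CPM, its log2 difference of 2.67 ± 1.06 had an adjusted p of 0.162. Without the first wild-type library it was 4.76, and without the second 1.35. Rab9 (0.51 ± 0.19, adjusted p 0.144) and Rab27, of regulated exocytosis in mammals (0.74 ± 0.31, adjusted p 0.189), were higher in both mutant than in both wild-type libraries and were not called by edgeR's quasi-likelihood test with Benjamini-Hochberg adjustment. When genes with few counts were kept in the fit, edgeR's calls also took in Rab27, Rab3-GEF and Rab3GAP1, which makes 5 members against 11.5% of all genes. DESeq2 called Rab21 and Rab40 alone, against 14% of all genes, as did edgeR with the replicate number as a block, against 15.3%.

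Counted by whether the libraries of the 2 lines overlap, 10 members were higher in both mutant libraries and 6 lower. The shares over all genes were 28.2% and 28.1%, and whether the counts of members depart from these shares was not tested. With upd the counts were 7 higher and 6 lower, against 26.8% and 26.4% of all genes. The abundant members differed little. With control media, Rab1 differed by 0.04 (95% interval -0.37 to 0.44), Rab11 by 0.06 (-0.27 to 0.38) and Rab5 by -0.07 (-0.37 to 0.22) on the log2 scale.

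With upd, the same 2 genes were called in the mutant against the wild-type line, 2 of 27 members against 10.5% of all genes (3.99% higher and 6.53% lower). These libraries are not those with control media, but the lines are the same and the fit shares its estimate of the spread. Same-numbered libraries of a line also deviated together across media, with correlations over genes of 0.68 and 0.65. The 2 media are therefore not independent repeats of the line difference. Rab21 stood at 33.8 and 27.3 CPM in wild-type cells with upd and at 13.7 and 14.3 CPM in the mutant. The groups did not overlap, and the log2 difference was -1.12 ± 0.21, with an adjusted p of 0.0112 (edgeR quasi-likelihood, Benjamini-Hochberg). Without the first wild-type or the first mutant library with upd, the adjusted p was 0.0597 or 0.061.

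Rab40 with upd stood at 18.1 and 19.8 CPM in wild-type cells and at 37.1 and 28.4 CPM in the mutant. The lines were again apart, with a log2 difference of 0.79 ± 0.20 and an adjusted p of 0.0417 (edgeR quasi-likelihood, Benjamini-Hochberg). Leaving out either wild-type library with upd, the first mutant library with upd or either mutant library with control media moved the adjusted p above 0.05, to between 0.0677 and 0.219.

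**Figure D3:**
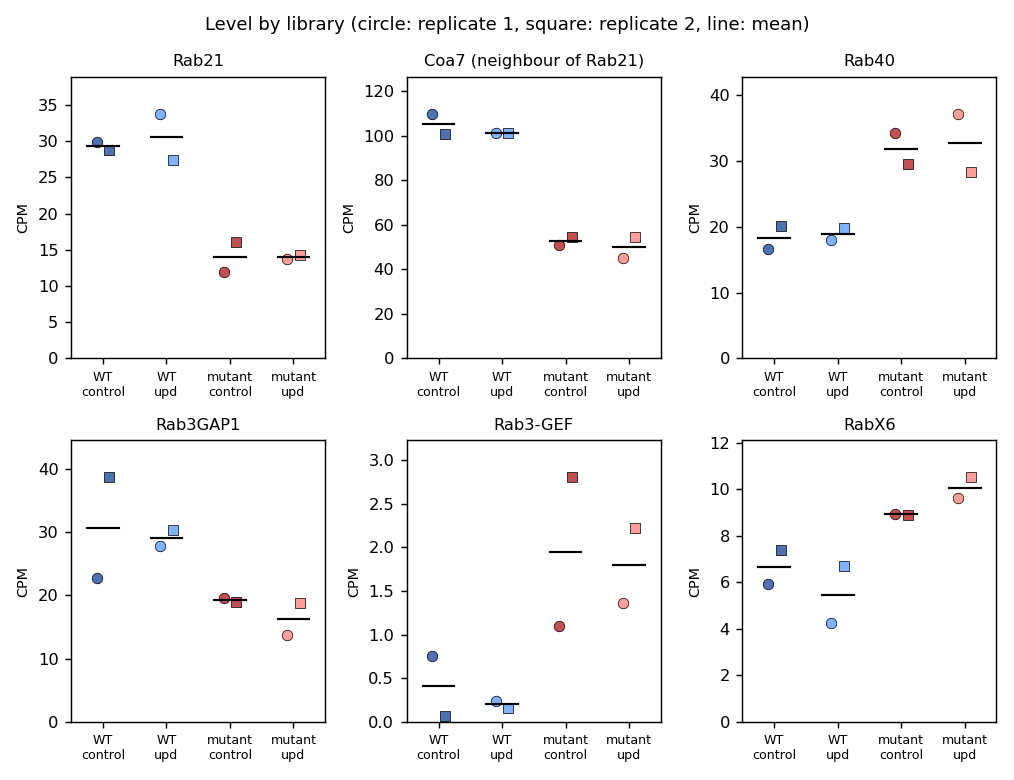
CPM (linear axis from 0) of 5 Rab genes and of Coa7, the neighbour of Rab21, in the 8 libraries. Circles are replicate 1, squares replicate 2 and lines the group mean. Rab21 and Coa7 are lower and Rab40 is higher in all 4 mutant libraries, while Rab3GAP1 varies from 22.8 to 38.7 CPM within 1 wild-type group.

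Regulators of Rab3 and a fly-specific member came next by p. Rab3GAP1 stood at 27.7 and 30.3 CPM in wild-type cells with upd and at 13.7 and 18.7 CPM in the mutant, a log2 difference of -0.84 ± 0.27 with an adjusted p of 0.0826 (edgeR quasi-likelihood, Benjamini-Hochberg). Rab3-GEF had 2 and 5 counts in wild-type cells and 27 and 52 in the mutant, a log2 difference of 3.23 ± 1.08 with an adjusted p of 0.0954 by the same test. DESeq2 called both genes, with adjusted p-values of 0.0334 for Rab3GAP1 and 0.0359 for Rab3-GEF, which makes 4 members against 15.4% of all genes. DESeq2 was run on the filtered genes, which Rab3-GEF entered through the mutant libraries, so its call there is no support for a line difference. The same 4 members were called by edgeR when genes with few counts were kept, against 12.7% of all genes. With the replicate number as a block, edgeR called Rab3GAP1 and RabX6 beside Rab21 and Rab40, against 17.1%. Rab3GAP1 was also called by edgeR's quasi-likelihood test with Benjamini-Hochberg adjustment without the first or the second wild-type library with control media, at adjusted p-values of 0.0403 and 0.0442.

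RabX6 stood at 4.24 and 6.69 CPM in wild-type cells with upd and at 9.63 and 10.5 CPM in the mutant. Its groups did not overlap, and its log2 difference of 0.85 ± 0.29 had an adjusted p of 0.0969 (edgeR quasi-likelihood, Benjamini-Hochberg). Exons of RabX6 overlap those of Vti1a, a gene on the opposite strand. Vti1a had log2 differences of 0.90 with control media and 0.93 with upd (adjusted p 0.0926 and 0.0777 by the same test), and whether counting used strand is not given, so reads of these genes cannot be told apart. Rab7 stood at 206 and 193 CPM in wild-type cells with upd and at 256 and 251 CPM in the mutant, a log2 difference of 0.35 ± 0.14 with an adjusted p of 0.151 (edgeR quasi-likelihood, Benjamini-Hochberg). With upd, 7 members were higher in both mutant libraries, against 26.8% of all genes, and 6 were lower, against 26.4%.

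Some cell type markers stood apart between the lines. Summed RPKM of the 8 blood cell markers was 143 to 242 in wild-type cells with control media, 142 to 233 with upd, 118 to 124 in the mutant with control media and 91.4 to 111 with upd. Among them, the collagen gene Col4a1 stood at 376 to 601 CPM in wild-type and at 0.642 to 1.34 CPM in mutant libraries, and Hml at 1.64 to 11.2 and 0.385 to 1.29 CPM, while the ranges of Pxn, srp and crq overlapped between the lines. Of 5 neuron markers, 2 had a mean of at least 1 RPKM, and their summed RPKM was 1.68 to 1.84 and 1.66 to 1.98 in the wild-type groups and 4.31 to 4.73 and 4.51 to 4.62 in the mutant groups. The marker with ranges apart was cpx (complexin, of synaptic vesicle fusion), at 2.18 to 3.41 CPM in wild-type and 31.1 to 39.2 CPM in mutant libraries, while elav overlapped between the lines and nSyb, brp and Syt1 were near 0 throughout. The germ line gene bam stood at 40.0 to 42.8 CPM in wild-type and 1.05 to 5.82 CPM in mutant libraries, and vas was near 0 in both. Summed markers of muscle and fat body did not exceed 1.3 RPKM. The part of these differences in the values of Rab21, Rab40 and the Rab3 regulators was not tested. In such bulk samples, fewer cells of a type and less RNA per cell cannot be told apart.

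Rab21 has a close neighbour that differed in the same way. Coa7, which encodes an assembly factor of a mitochondrial respiratory complex in mammals, starts 86 bases from the annotated start of Rab21 and runs in the opposite direction, from 23013495 to 23016586 on the plus strand of chromosome X (dm6). It stood at 109.9 and 101 CPM in wild-type cells with control media and at 50.9 and 54.6 CPM in the mutant. With upd it stood at 101 and 101 CPM in wild-type cells and at 45.1 and 54.8 CPM in the mutant. All 4 mutant libraries were below the 4 wild-type libraries, with log2 differences of -0.996 and -1.02 and adjusted p-values of 0.00572 and 0.00474 (edgeR quasi-likelihood, Benjamini-Hochberg). Coa7 was looked up for its place beside Rab21 after the values of Rab21 were known.

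After 1 hour with upd, no Rab gene differed in wild-type cells by edgeR's quasi-likelihood test with Benjamini-Hochberg adjustment. The count was 0 of 27 members, in a comparison in which edgeR called 0 of 8126 genes (0%). Socs36E, at 287 and 208 CPM with control media and 927 and 1007 CPM with upd, was thus not called either. At this replication, and without a term for the replicate number, the test can miss even large responses. With a replicate block in each line, edgeR called 0 of 27 members and 111 genes (1.37%) in wild-type cells. In a fit of the wild-type libraries alone with a block, it called 1 of 26 members (Rab1) and 338 genes (4.36%). At an unadjusted p under 0.05 there were 0 members and 148 genes (1.82%), and DESeq2 called 0 members and 10 genes (0.149%). The median size of the log2 difference was 0.12 for the members and 0.13 over all genes.

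The lowest p-values belonged to Rab3-GAP, Rab32 and Rab9. Rab3-GAP, the non-catalytic subunit of the Rab3 GTPase-activating complex, stood at 14.0 and 17.4 CPM with control media and, with upd, at 20.8 and 19.7 CPM, a log2 difference of 0.36 ± 0.21. Rab32 stood at 1.64 and 2.10 CPM with control media and, with upd, at 1.21 and 0.801 CPM, a log2 difference of -0.96 ± 0.58. Rab9 stood at 15.2 and 13.2 CPM with control media and, with upd, at 17.9 and 16.1 CPM, a log2 difference of 0.26 ± 0.19. None of these passed the test, each with an adjusted p of 1 by edgeR's quasi-likelihood test with Benjamini-Hochberg adjustment, although the 2 media did not overlap for any of them. Such separation was seen in 6 members with higher and 3 with lower levels under upd, against 12.1% and 12.3% of all genes.

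In the mutant line, upd likewise gave 0 called members of 27 and 0 of 8126 genes (0%) by edgeR's quasi-likelihood test, which became 1 member (Rab1) and 467 genes (5.75%) with a replicate block in each line. At an unadjusted p under 0.05 there were 0 members and 266 genes (3.27%), and DESeq2 called 0 members and 2 genes (0.0246%). The median size of the log2 difference was 0.11 for the members and 0.18 over all genes. Libraries of the 2 media did not overlap in 6 members with higher and 3 with lower levels under upd, against 18% and 19% of all genes.

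Rab1 had the lowest p among the members in this line. It stood at 674 and 561 CPM in the mutant with control media and, with upd, at 449 and 504 CPM. In wild-type cells it stood at 560.2 and 645 CPM with control media and, with upd, at 449.6 and 569 CPM. The media were apart in the mutant and overlapped in wild-type cells. The log2 differences were -0.37 ± 0.18 in the mutant (adjusted p 0.992) and -0.24 ± 0.18 in wild-type cells (adjusted p 1), neither passing edgeR's quasi-likelihood test with Benjamini-Hochberg adjustment.

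Rab5 and Rab6 had the next lowest p-values in the mutant. Rab5 stood at 271 and 283 CPM with control media and, with upd, at 316 and 325 CPM in the mutant, and at 289.9 and 294 CPM with control media and, with upd, 311 and 318 CPM in wild-type cells. The media did not overlap in either line. Its log2 differences were 0.21 ± 0.13 in the mutant and 0.11 ± 0.13 in wild-type cells. Rab6 stood at 266 and 281 CPM with control media and, with upd, at 295 and 306 CPM in the mutant, a log2 difference of 0.14 ± 0.14. These differences did not pass the test either, with adjusted p-values of 0.992 in the mutant and 1 in wild-type cells (edgeR quasi-likelihood, Benjamini-Hochberg).

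**Figure D4:**
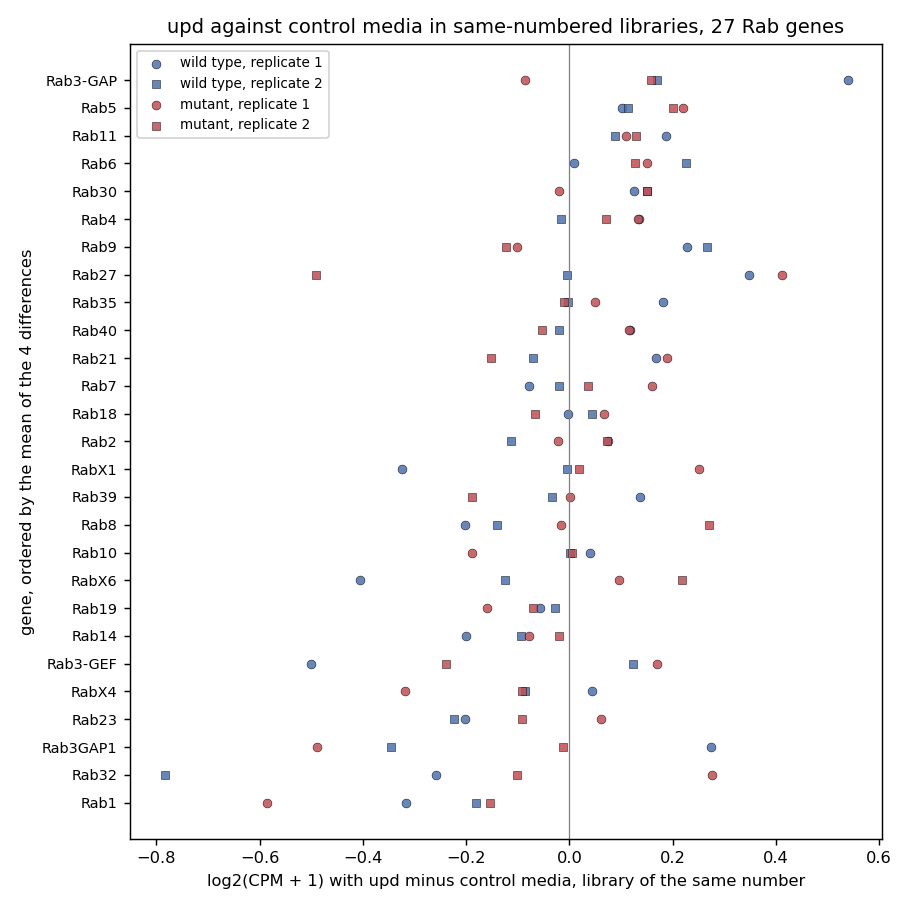
Difference of log2(CPM + 1) with upd minus control media between libraries that share a replicate number, for 27 Rab genes (circles replicate 1, squares replicate 2, blue wild type, red mutant). Rab1 lies below 0 and Rab5, Rab6 and Rab11 above 0 in all 4 pairs, and most genes lie on both sides.

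The wild-type libraries numbered 1 were shallower than those numbered 2. They also held more mitochondrial transcript, at 20.2% and 22.1% against 14.0% and 12.8% of the counts. Differences were therefore also taken between libraries of the same number. Rab1 was lower with upd in all 4 such pairs, by -0.32 and -0.18 in wild-type and -0.59 and -0.15 in mutant cells on the log2(CPM + 1) scale. Rab5 was higher in all 4, by 0.10 and 0.11 in wild-type and 0.22 and 0.20 in mutant cells. In the same way 3 members were higher in every pair (Rab5, Rab6 and Rab11), against 13.9% of all genes, and 3 lower (Rab1, Rab14 and Rab19), against 13.5%. Both shares lie near the background.

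Whether Rab1 was called with upd depended on how the replicate number entered the fit. With 1 block over both lines, Rab1 was not called by edgeR in the mutant (adjusted p 0.664) or in wild-type cells (adjusted p 1), and 0 of 27 members were called in either line. In a fit of the wild-type libraries alone with that block, which has 1 residual degree of freedom, the log2 difference was -0.25 with an adjusted p of 0.0263, and 1 of 26 members was called against 4.36% of all genes (1.25% lower). With a block in each line over all libraries, Rab1 had an adjusted p of 0.0309 in the mutant, 1 of 27 members against 5.75% of all genes (1.9% lower), and 0.376 in wild-type cells, where 0 of 27 members were called against 1.37%. In that fit the difference between the lines called 0 of 27 members against 0.406% of all genes. The labels do not say that the numbers mark shared cultures. Within each line, however, same-numbered libraries deviated together, with correlations over genes of 0.68 in wild-type and 0.65 in mutant cells.

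**Figure D5:**
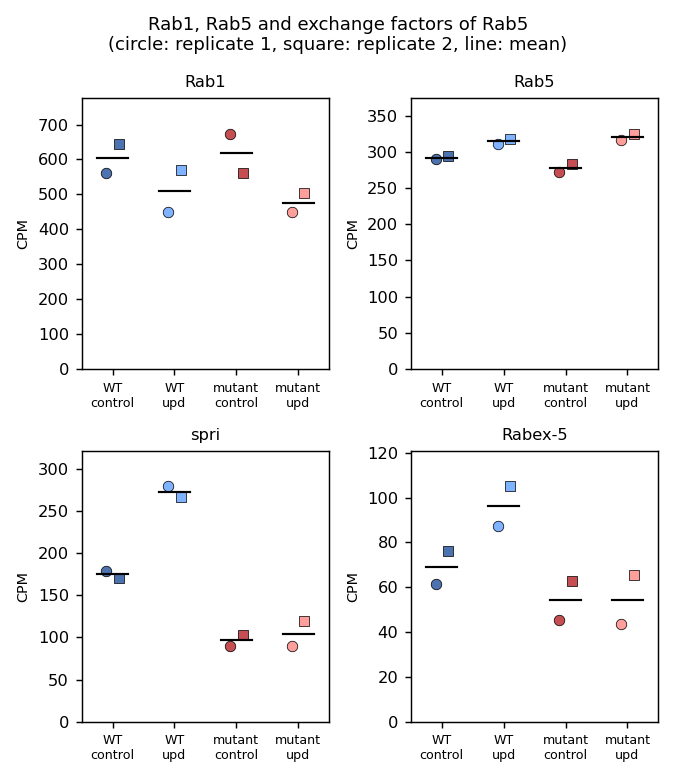
CPM (linear axis from 0) of Rab1, Rab5 and the Rab5 exchange factors spri and Rabex-5 in the 8 libraries. Circles are replicate 1, squares replicate 2 and lines the group mean. spri stands at 266 and 279 CPM in wild-type cells with upd, above the other 6 libraries.

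The response to upd did not differ between the lines for any Rab gene by the interaction term of edgeR's quasi-likelihood test, with 0 of 27 members and 0 of 8126 genes (0%) called. At an unadjusted p under 0.05 there were 0 members and 88 genes (1.08%), and DESeq2 called 0 members and 1 gene (0.0123%). The lowest p-values were those of Rab32 (-1.14 ± 0.80), Rab9 (0.38 ± 0.27) and Rab8 (-0.31 ± 0.27), the values being the wild-type minus the mutant log2 response, each with an adjusted p of 1 after Benjamini-Hochberg adjustment. For Rab1 this difference was 0.13 with a 95% interval of -0.44 to 0.71, which holds differences of either sign. The intervals are wide enough that a response in 1 line only could go unseen at this replication and without a term for the replicate number. Socs36E, with its rise in wild-type cells given above, was not called by this term either.

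Partners of the Rab proteins were followed in a list of 92 genes for exchange factors, activating proteins, escort and recycling factors, tethers and effectors, of which 91 passed the filter. In the mutant against the wild-type line, 5 of the 91 were lower and 0 higher with control media, and the same 5 (Mical, Ocrl, Vps29, plx and spri) were lower with upd. With a library left out, 0 to 3 were called with control media and 3 to 5 with upd. The background shares with control media were 5.7% lower and 3.27% higher, as above. With upd they were 6.53% lower and 3.99% higher. With control media, DESeq2 and edgeR with the replicate number as a block also called TBC1d7, which was higher. The median log2 difference of the list was 0.03 with control media and -0.08 with upd, against 0.01 and 0.02 over all genes.

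The gene spri (sprint) encodes an exchange factor that activates Rab5. It stood at 179 and 171 CPM in wild-type cells with control media and at 90.1 and 103 CPM in the mutant, a log2 difference of -0.86 ± 0.17 with an adjusted p of 0.0172 (edgeR quasi-likelihood, Benjamini-Hochberg). With upd it stood at 279 and 266 CPM in wild-type cells and at 89.2 and 119 CPM in the mutant, a log2 difference of -1.39 ± 0.17 with an adjusted p of 0.00173 by the same test. The wild-type libraries with upd were the highest of all and the mutant libraries the lowest. With control media the call was lost without any 1 of the 4 libraries compared, at adjusted p-values of 0.0647 to 0.156.

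Activating proteins and effectors gave the other calls. The gene plx (pollux) encodes a protein with the domain of Rab GTPase-activating proteins, and stood at 106 and 91.6 CPM in wild-type cells with control media and at 45.9 and 50.3 CPM in the mutant. Its log2 difference was -1.04 ± 0.18 (adjusted p 0.00956) with control media and -1.21 ± 0.18 (adjusted p 0.00448) with upd by edgeR's quasi-likelihood test with Benjamini-Hochberg adjustment. Mical, an actin-oxidising enzyme whose mammalian relatives bind Rab proteins, stood at 45.0 and 41.5 CPM against 21.5 and 22.6 CPM, with log2 differences of -0.97 ± 0.16 and -1.05 ± 0.16 (adjusted p 0.00833 and 0.00503 by the same test). With control media the call of plx was lost without the first mutant or the first wild-type library, at adjusted p-values of 0.092 and 0.0523, and that of Mical without the first or the second mutant library, at 0.0889 and 0.0539. Vps29, a subunit of the retromer coat, and Ocrl, an inositol lipid phosphatase that binds Rab proteins in mammals, fell less. Their log2 differences with control media were -0.55 ± 0.13 and -0.65 ± 0.17, with adjusted p-values of 0.0358 and 0.0490 by the same test. The value of Ocrl is close to the threshold. Vps29 was not called by edgeR with control media when genes with few counts were kept in the fit. For Vps29 and Ocrl, values with a library left out are not given.

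None of the 91 genes was called between the media in either line by edgeR's quasi-likelihood test, and DESeq2 called none. In wild-type cells spri had the lowest p of the list, with a log2 difference of 0.64 ± 0.17 and an adjusted p of 1, and upd libraries above control libraries. Rabex-5, another exchange factor for Rab5, stood at 61.4 and 76.3 CPM with control media and, with upd, at 87.2 and 105 CPM in wild-type cells, a log2 difference of 0.48 ± 0.24 with an adjusted p of 1 (edgeR quasi-likelihood, Benjamini-Hochberg). In the mutant it stood at 45.5 and 62.8 CPM with control media and, with upd, at 43.6 and 65.3 CPM.

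With a replicate block in each line, spri (0.64 ± 0.09, adjusted p 2.42e-04) and Rabex-5 (0.48 ± 0.11, adjusted p 0.0159) were called higher with upd in wild-type cells by edgeR's quasi-likelihood test with Benjamini-Hochberg adjustment. They and the DENN-domain gene CG18659 were the 3 of 91 partner genes called there, against 1.37% of all genes. In the mutant 7 of 91 were called, 3 higher and 4 lower, against 5.75% of all genes. With 1 block over both lines, neither passed in wild-type cells, at adjusted p-values of 0.71 for spri and 1 for Rabex-5. In the fit with a block in each line the mutant differences were 0.10 and -0.0016 and did not pass, and the difference between the lines did not pass either, with adjusted p-values of 0.0874 for spri and 0.239 for Rabex-5. Rab5 itself was not called in that fit in either line.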

How the data were processed

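Poly-A selected RNA from 8 libraries was measured. Extraction used Trizol and library construction a Wafergen PrepX kit, per the labels' protocols. Trimmomatic 0.36, STAR 2.5.2b and the dm6 assembly are named in the submitters' processing notes, and the sources used here do not give the read counter, its annotation or its strand setting. The deposited count column holds whole numbers per gene. The RPKM column was deposited by the authors. Dividing the counts by the length and the RPKM gives a constant per library, of which the gene total is 85.2% to 90.6%. An Ensembl annotation of dm6 gave symbols and coordinates for 13852 of 13932 identifiers.

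Counts of all 8 libraries were fitted in R 4.3.3 with edgeR 4.0.16 and its quasi-likelihood test, with TMM scaling, the filterByExpr filter and 4 group means, which left 8126 genes and 4 residual degrees of freedom. All tests were two-sided. Benjamini-Hochberg adjustment ran over all genes tested, and calls needed an adjusted p under 0.05. Each line was compared between media, the lines were compared within each medium, and an interaction term compared the responses. The script was tested on simulated counts for the comparison of the lines with control media only, without a replicate effect, so that test does not cover the upd comparisons. Standard errors were derived from the log2 difference and its F statistic, and intervals are at 95%. The floor of 3 counts covers counting error only.

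The members and gene lists were chosen with earlier results of these data known. Fit statistics are given for called members and, where fewer than 3 were called, for the 3 with the lowest p, and for at most 6 called partners. Rab1, Rab5 and Rab11 where not so selected, Rab27 and Rab3-GEF with control media, Rab3-GEF, RabX6 and Rab7 with upd, Rabex-5 and Coa7 were named after their values were seen. The settings varied were the test (DESeq2 1.42.0), the scaling (median of ratios), the filter (none), the libraries (each left out) and a block for the replicate number. The genome sequence, promoters and proteins were not used here.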

Additional observations from a re-analysis of the deposited data

How the results depend on the processing

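With control media, 2 Rab members were called between the lines; without a filter there were 5, and with a library left out 0 to 2. With upd, 2 were called, 4 with DESeq2, 4 without a filter and 4 with the replicate block (Rab21, Rab3GAP1, Rab40 and RabX6), and 0 to 3 with a library left out. For upd against control media the members called were 0, except 1 (Rab1) when wild-type libraries were fitted alone with a replicate block and 1 (Rab1) in the mutant with a replicate block within genotype; 0 were called for the difference between lines under every alternative run. Over all genes, upd in wild-type cells called 0, with 10 by DESeq2, 16 without a filter, 1 with the replicate block, 111 with the block within genotype, 338 in the wild-type libraries alone, and 0 to 2 with a library left out. In the mutant these were 2 by DESeq2, 18 without a filter and 467 with the block within genotype, and for the difference 1, 4 and 33. Between lines, 729 genes with control media became 1138 by DESeq2, 1294 without a filter, 1247 with the replicate block and 253 to 782 with a library left out, and 855 genes with upd became 1429 without a filter, 1386 with the block and 382 to 774. Of the 91 partner genes, for which the alternatives were added after seeing the data, 5 were called in each medium between lines, with 0 to 3 (control media) and 3 to 5 (upd) with a library left out. Between lines, DESeq2 called 6 of them in each medium, against 14% of all genes with control media and 15.4% with upd. The replicate block also called 6 in each medium, against 15.3% and 17.1%. In both settings 1 of the 6 with control media, TBC1d7, was higher. With upd, Rabex-5 was called lower in both settings and without a filter. With upd and the block within genotype, 3 of the 91 partner genes were called in wild-type cells, against 1.37% of all genes, and 7 in the mutant, against 5.75%. In the wild-type libraries alone 6 of them were called, against 4.36% of all genes. The difference in response of Rab1 reversed from 0.13 to -0.0052 without mutant library 1 with control media and to -0.049 without wild-type library 2 with upd, and reached 0.30 at most. The main fit has no term for the replicate number, because the labels do not say that it pairs the libraries. Yet same-numbered deviations correlated at 0.68 and 0.65 within lines and at -0.063 to 0.14 between lines, over 2 numbers only. Libraries of a line that share a number thus deviated together. The main fit leaves this shared part in its spread when it compares the media. Over the single genes and settings, 425 kept direction and side of the threshold, 17 passed it newly, 24 no longer passed it and 2 reversed. Where a group was left with 1 library, that library was assumed to vary like the other groups. The causes were not tested. The shallow wild-type libraries limit what can be seen for members under 1 RPKM.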

Other observations

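Of the 36 members, 14 lie on chromosome X, 7 on 2L, and 5 each on 2R, 3L and 3R. Of the 14 on X, 5 are the Rab9 copies without reads, 8 passed the filter and 2 (Rab21 and Rab40) were called between the lines in each medium, while none of the 19 tested members on other arms was called. Over all genes of 2L, 2R, 3L and 3R, 7.07% to 10.8% were called with control media and 8.78% to 13.8% with upd. Over all genes of X, 11.3% were called with control media and 13.2% with upd and the median log2 difference of these genes was 0.02 and 0.03.

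Within 100 kb on each side of Rab21, 17 genes are annotated in the tables, 7 were tested and 6 of these had log2 differences below 0 in each medium, with median log2 differences of -0.70 with control media and -0.73 with upd. Of the 7, 1 was called with control media (Coa7) and 2 with upd (Coa7 and su(f), adjusted p 0.0430 by edgeR's quasi-likelihood test with Benjamini-Hochberg adjustment). Around Rab40, which was higher in the mutant, 4 genes were tested and 0 were called, with 2 above and 2 below 0 with control media, 1 above and 3 below with upd, and medians of -0.55 and -0.73. The nearest of them, CG42258, had log2 differences of 0.42 and 0.35. Around Rab3GAP1, 7 were tested, with medians of -0.30 and -0.14 and 0 and 1 called. Around Rab3-GEF, 14 were tested, with medians of -0.16 and 0.14 and 0 and 1 called. The windows were chosen after the values of these members were seen, and whether the copy number of these regions differs between the lines was not tested.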
